A study of Tursiops truncatus with 17 samples.

Results

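RBM3 and CIRBP are the cold-inducible RNA-binding proteins of mammals, and they are 2 of the 21265 genes measured here in the cerebral cortex of bottlenose dolphins (Tursiops truncatus). They were found by gene name, with 1 row each, and they were chosen with their seasonal values in these libraries already known. For that reason their difference between the seasons is given below as a description, with no test. Messenger RNA was sequenced from 9 dolphins of the bloom season and 8 of the non-bloom season, all labelled wild type, with 1 library of frozen archived necropsy cortex from each animal. The season names are those of the submitters. The labels give no age, body temperature or time between death and freezing, so none of these can be set beside the values.

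Both proteins carry a single RNA recognition motif followed by a glycine-rich tail. Their transcripts accumulate when mammalian cells are mildly cooled and decline when cells are warmed, and they also respond to other stresses. In mouse brain, RBM3 has been tied to the repair of synapses after cooling, and CIRBP to the daily rhythm of body temperature. Part of the control runs through splicing: the CLK kinases phosphorylate SR splicing factors and become more active at lower temperature in mammalian cells, and RBM3 carries an exon that leads to decay of its transcript when it is included. The values used here are totals per gene and do not separate spliced forms. In whole tissue, fewer cells of a type and less RNA per cell cannot be told apart.

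The libraries held 7680050 to 15635292 reads. Bloom 5, bloom 6 and bloom 9 stood apart from the others, with 57.0%, 33.5% and 77.2% of their reads from the mitochondrial genome, against 1.47% to 22.1% in the remaining 14 libraries. Outside the mitochondrial genes bloom 9 had 1753299 reads, fewer than any other library. Main results are given with and without these 3 libraries. Values are the deposited ones, CPM (a gene's reads scaled to a common library size) after TMM scaling (trimmed mean of M values), and dolphins are numbered within their season in order of deposition.

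RBM3 (ENSTTRG00000008587, protein coding, scaffold_93553 from 32169 to 34103 in the files' assembly, a build that the sources used here do not name) was lower in the bloom dolphins. Its lowest, median and highest values were 38.9, 88.0 and 142 in the bloom dolphins, against 113, 177 and 237 in the non-bloom dolphins. The lowest was in bloom 2 and the highest in non-bloom 1. The mean was 79.0 ± 34.3 in the bloom season (SD, n = 9) and 177 ± 38.5 in the non-bloom season (SD, n = 8), 55.3% lower in bloom and a difference of -1.25 on the log2(value + 1) scale. The groups overlapped by a single bloom library: bloom 8, at 142, lay above non-bloom 4, at 113, and the other 8 of 9 bloom libraries lay below every non-bloom one. Of 13548 genes tested, 0.989% had at least 8 bloom libraries below the lowest non-bloom library, a share given as background only, because the gene was chosen on this contrast.

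CIRBP (ENSTTRG00000011049, protein coding, scaffold_115261 from 98415 to 99682 in the same assembly) was also lower in the bloom dolphins, with more overlap. Its lowest, median and highest values were 63.8, 140 and 185 in the bloom dolphins, against 141, 219 and 314 in the non-bloom dolphins. The lowest was in bloom 1 and the highest in non-bloom 7. The mean was 127 ± 43.1 in bloom (SD, n = 9) and 223 ± 58.5 in non-bloom (SD, n = 8), 43.0% lower in bloom and a difference of -0.84 on the log2(value + 1) scale. Of the bloom libraries 5 of 9 lay below every non-bloom one, as at least 5 did for 16.1% of all genes tested, and again bloom 8 had the highest bloom value. Without bloom 5, 6 and 9 the log2 differences were -1.24 for RBM3 and -0.92 for CIRBP.

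**Figure D1:**
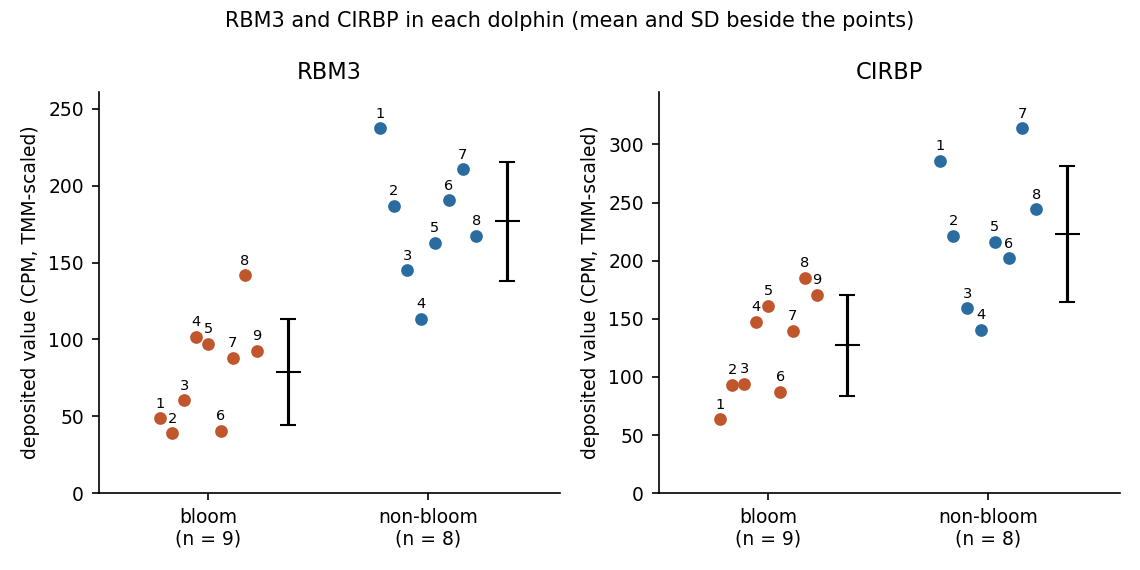
Deposited values (CPM, TMM-scaled) of RBM3 and CIRBP in each dolphin, bloom on the left and non-bloom on the right of each panel, numbered by dolphin, with the mean and SD beside the points. For RBM3 bloom 8 is the only bloom dolphin above the lowest non-bloom dolphin; for CIRBP 4 bloom dolphins overlap the non-bloom range.

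The bloom dolphins differed among themselves, and the same 4 were lowest for both genes. Bloom 2, bloom 6, bloom 1 and bloom 3 held the 4 lowest RBM3 values, 38.9, 40.7, 48.9 and 60.4, and the same 4 dolphins held the 4 lowest CIRBP values, 93.2, 87.4, 63.8 and 94.1. The next RBM3 value was 88.0 in bloom 7, and no library lay between 60.4 and 88.0. Counting error was small against these steps. Bloom 9, the thinnest library, had 162 reads of RBM3, which gives a 95% exact Poisson interval of 78.9 to 108 around its value of 92.6, and non-bloom 1 had 2985 reads (229 to 246). The intervals cover counting error only. Neighbours such as bloom 2 (35.8 to 42.2) and bloom 6 (36.5 to 45.3) were not distinguishable in RBM3.

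The high-mitochondrial libraries did not lie together in either gene. Bloom 6 was among the lowest for RBM3, while bloom 5 and bloom 9, at 97.3 and 92.6, lay near the bloom median of 88.0. The SD within seasons was 0.52 for RBM3 and 0.47 for CIRBP on the log2(value + 1) scale. It was larger than in 71.0% and 65.5%, in that order, of the 200 genes nearest in mean level, whose median SD was 0.40 and 0.38.

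RBM3 and CIRBP varied together among dolphins of the same season. Within the bloom season Pearson's r between their log2 levels was 0.89 (exact permutation test over 362880 pairings, two-sided, p = 0.00278, n = 9) and Spearman's rho was 0.87 (exact permutation p = 0.00451). Within the non-bloom season r was 0.89 (exact permutation test over 40320 pairings, p = 0.00303, n = 8) and rho was 0.81 (exact permutation p = 0.0218). This relation lies within each season and so does not use the contrast by which the genes were chosen. Libraries share depth and scaling across genes, and how many genes reach such an r with either member was not counted. HMGB3, for example, had r of 0.96 with RBM3 and 0.90 with CIRBP in bloom, and 0.57 with each in non-bloom. Adjusted over 22 relations computed in the same family (Benjamini-Hochberg), the p of r was 0.0333 in each season (permutation), and that of rho was 0.0992 in bloom and 0.240 in non-bloom (permutation).

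The size of r changed little when libraries were left out, while its passing of the correction depended on them. With 1 library left out r stayed between 0.87 and 0.94 in bloom and between 0.81 and 0.93 in non-bloom. The exact permutation p adjusted over the 22 relations then exceeded 0.05 in 6 of 9 bloom and 6 of 8 non-bloom fits, and was highest without bloom 8 (0.175) and without non-bloom 4 (0.308). Without the 2 libraries farthest from the median of RBM3, r was 0.94 in bloom and 0.78 in non-bloom. Without bloom 5, 6 and 9 it was 0.89 in the 6 remaining bloom libraries (exact permutation p = 0.0208, adjusted p = 0.229). In bloom it spans the gap described above, between 4 lower and 5 higher dolphins, and each side of that gap holds too few libraries for an r of its own.

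**Figure D2:**
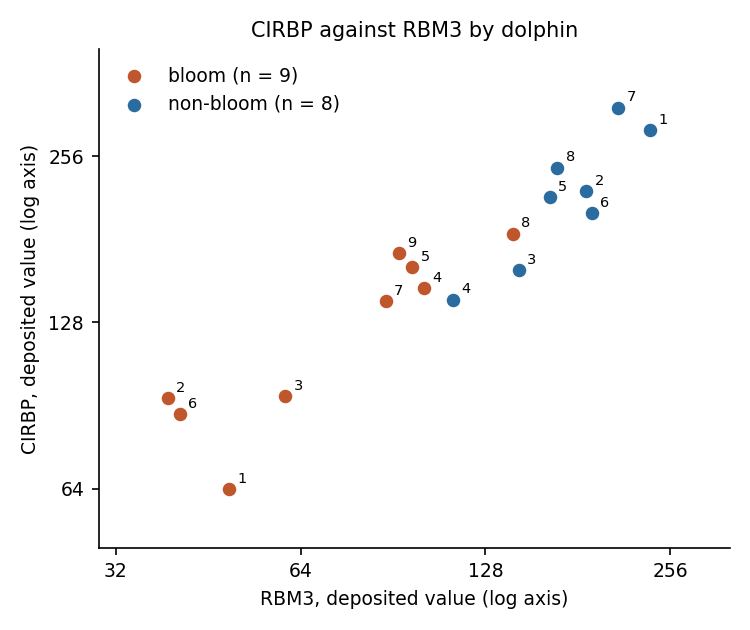
CIRBP against RBM3 in each dolphin, both axes on a log scale of the deposited values, bloom in orange and non-bloom in blue, numbered by dolphin. Within each season the points run from low in both genes to high in both genes, and bloom 1, 2, 3 and 6 form the lower end.

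The balance between the pair was not constant. The ratio of the RBM3 value to the CIRBP value, which compares dolphins and not the levels of the genes with each other, had a lowest, median and highest value of 0.417, 0.630 and 0.766 in bloom. In the non-bloom dolphins these were 0.671, 0.818 and 0.945. Bloom 2 and bloom 6 had the lowest ratios, 0.417 and 0.466, and the groups overlapped, with bloom 1, bloom 8 and bloom 4 inside the non-bloom range. The ratio averaged 0.614 ± 0.122 in bloom (SD, n = 9) and 0.806 ± 0.0984 in non-bloom (SD, n = 8), so RBM3 was lower by more than CIRBP. This too uses the contrast that chose the genes and was not tested.

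Neither gene had a relation with measures of the libraries that passed the correction. The 20 relations, counted over both genes and both seasons, covered the ratio of mitochondrial to other reads and the number of other reads. They also covered the mean log2 levels of neuron, astrocyte and oligodendrocyte markers. The smallest p was that of RBM3 with the oligodendrocyte markers in bloom, with r = -0.58 and rho = -0.47 (exact permutation p = 0.104 and 0.213, adjusted p = 0.624 and 0.779, n = 9), and r was -0.47 without bloom 5, 6 and 9. For CIRBP the same relation had r = -0.57 and rho = -0.57 (exact permutation p = 0.113 and 0.121, adjusted p = 0.624 and 0.779, n = 9), and r was -0.22 without those libraries.

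With the mitochondrial ratio, r in the non-bloom season changed when 2 dolphins were left out together. RBM3 had r = 0.19 and rho = 0.024 there (exact permutation p = 0.640 and 0.977, adjusted p = 0.951 and 0.977, n = 8). CIRBP had r = -0.075 and rho = -0.31 (exact permutation p = 0.865 and 0.462, adjusted p = 0.951 and 0.847, n = 8). Without non-bloom 1 and 5, the 2 libraries farthest from the median ratio, r was -0.74 for RBM3 and -0.95 for CIRBP. Non-bloom 1 had the highest mitochondrial share of its season, 22.1%, and the highest RBM3 value. Among the 6 bloom libraries other than bloom 5, 6 and 9, r was -0.70 for RBM3 and -0.56 for CIRBP with the same ratio (exact permutation p = 0.115 and 0.274).

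Markers of cell types were set beside the pair. The season test was limma on log2(value + 1), adjusted over all 13548 genes by Benjamini-Hochberg, with an adjusted p under 0.05 taken as passing. Over all genes 9.16% passed, 4.47% higher and 4.69% lower in bloom. All defining markers found in the files had reads in at least 1 library. Neuron markers summed to 2105 to 10263 in bloom and 7876 to 13847 in non-bloom libraries, and 1 of 11 tested fell and none rose. Interneuron markers summed to 92.7 to 656 in bloom and 361 to 870 in non-bloom libraries, and 6 of 16 fell. Excitatory neuron markers summed to 616 to 3721 in bloom and 2627 to 4346 in non-bloom, and 1 of 12 fell.

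The highest sums of oligodendrocyte, astrocyte and endothelial markers were in bloom libraries, and that of microglia markers was in a non-bloom library. Oligodendrocyte markers summed to 5241 to 20338 in bloom and 2067 to 9475 in non-bloom, and 2 of 14 rose, where 4.47% of all genes did. Astrocyte markers summed to 1582 to 14269 in bloom and 2021 to 4013 in non-bloom, and none of 12 passed by limma, where 6 were higher at an unadjusted p under 0.05, while edgeR called 3 higher and DESeq2 7. Endothelial markers summed to 222 to 3379 in bloom and 427 to 1059 in non-bloom, and 1 of 14 rose. Microglia markers summed to 4.90 to 37.0 in bloom and 4.97 to 300.4 in non-bloom with none of 7 passing by limma (3 lower at an unadjusted p under 0.05, 2 called by edgeR and 5 by DESeq2). The median sums of the microglia markers were close, 11.1 in bloom and 11.6 in non-bloom. Blood cell markers summed to 6.25 to 129 in bloom and 24.5 to 315 in non-bloom, and 2 of 6 fell. With 1 library left out the counts that passed ran from 0 to 3 for neuron, 0 to 10 for interneuron, 0 to 3 for excitatory, 0 to 5 for oligodendrocyte, 0 to 6 for astrocyte, 0 to 1 for microglia, 0 to 2 for endothelial and 1 to 3 for blood cell markers. Without bloom 5, 6 and 9 they were 1, 2, 0, 1, 0, 0, 0 and 1 in the same order. By edgeR and by DESeq2 they were 1 and 2 for neuron, 4 and 6 for interneuron, 0 and 1 for excitatory, 1 and 4 for oligodendrocyte, 2 and 5 for endothelial and 2 and 4 for blood cell markers. Over all 13548 genes edgeR called 823 higher and 346 lower, and DESeq2 called 1945 higher and 1225 lower. The share of all genes at an unadjusted p under 0.05 was not computed. With the mean level of the neuron markers as a term in the fit, the log2 difference was -1.18 for RBM3 and -0.91 for CIRBP, against -1.25 and -0.84 without it. These differences are descriptions, and the part of neurons or of other cell types was not tested.

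Genes that act on RBM3 or CIRBP were taken as a list of 20, of which 19 were tested. On the list 5 rose and 3 fell by the season test, where 4.47% of all genes were higher and 4.69% lower, and 11 did not pass, and its median log2 difference was -0.044, against -0.0034 over all genes.

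The 4 CLK kinases were 4 of the 5 genes of that list that rose in the bloom dolphins. CLK1 had a lowest, median and highest value of 53.7, 121 and 158 in bloom, against 22.3, 50.2 and 74.2 in non-bloom. Its log2 difference was 1.31 (SE 0.24, adjusted p = 0.0125, limma), and 8 of 9 bloom libraries lay above every non-bloom library, as in 1.58% of all genes; the exception was bloom 9. CLK4 ran from 27.1 to 41.2 in bloom, with a median of 30.9, against 17.0 to 24.9 in non-bloom, with a median of 19.3. The groups did not overlap in CLK4, which held for 0.502% of genes, and the log2 difference was 0.66 (SE 0.11, adjusted p = 0.00816, limma).

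CLK2 ran from 18.1 to 26.3 in bloom, with a median of 22.9, against 11.4 to 19.2 in non-bloom, with a median of 13.3. Its log2 difference was 0.62 (SE 0.13, adjusted p = 0.0213, limma), and 7 of 9 bloom libraries were above the highest non-bloom library (3.96% of genes). CLK3, named here after its values were seen to complete the family, ran from 33.2 to 84.0 in bloom and from 21.6 to 42.4 in non-bloom, with a log2 difference of 0.66 (SE 0.19, adjusted p = 0.0439, limma). Of its bloom libraries 6 of 9 lay above every non-bloom one (8.22% of genes). The calls of CLK1 and CLK4 were kept whichever library was left out. That of CLK2 was lost without non-bloom 2 (adjusted p = 0.0537) or non-bloom 8 (adjusted p = 0.0520), and that of CLK3 in 11 of 17 such fits (adjusted p up to 0.0891) and without bloom 5, 6 and 9, where the log2 difference was 0.51 (adjusted p = 0.0964, limma).

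**Figure D3:**
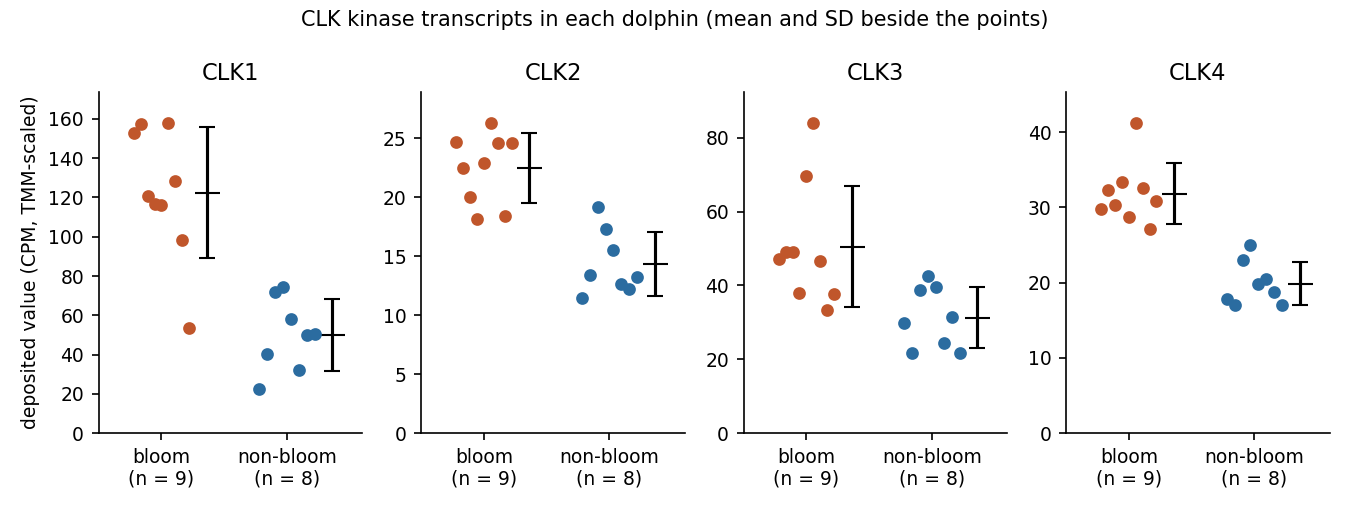
Deposited values (CPM, TMM-scaled) of CLK1, CLK2, CLK3 and CLK4 in each dolphin, bloom on the left and non-bloom on the right of each panel, with the mean and SD beside the points. All 9 bloom dolphins lie above the non-bloom dolphins for CLK4, and the other 3 genes overlap.

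The CLK transcripts also ran opposite to the pair within each season. CLK1 had r of -0.63 with RBM3 and -0.70 with CIRBP among the bloom dolphins (n = 9), and -0.85 and -0.62 among the non-bloom dolphins (n = 8). For CLK2 the values were -0.54 and -0.40 in bloom and -0.87 and -0.86 in non-bloom. For CLK3 they were -0.57 and -0.42 in bloom and -0.55 and -0.48 in non-bloom, and for CLK4 -0.58 and -0.38 in bloom and -0.77 and -0.83 in non-bloom.

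All 4 r were negative for each of the 4 kinases, as they were for 16.7% of all genes. Without bloom 5, 6 and 9 they stayed negative, and the weakest of the 4 was -0.62, -0.60, -0.48 and -0.12 for CLK1 to CLK4. These correlations are descriptions without a test, since the kinases were singled out after their values were seen, and libraries share depth and scaling across genes. With the neuron marker level as a term the log2 difference of CLK1 was 1.20 (SE 0.28, adjusted p = 0.122) and that of CLK4 0.64 (SE 0.13, adjusted p = 0.0840), in a limma fit that called 4 genes in all. In the same fit the log2 difference of CLK2 was 0.55 (SE 0.14), against 0.62 without the term. For CLK3 it was 0.37 (SE 0.18), against 0.66 without the term.

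Other members of the list moved less uniformly. SP1, a zinc finger transcription factor that acts on the CIRBP promoter in mammalian cells, averaged 19.6 ± 7.48 in bloom (SD, n = 9) and 10.6 ± 5.23 in non-bloom (SD, n = 8), and it rose by 0.86 (SE 0.25, adjusted p = 0.0455, limma). GSK3B, a kinase that can phosphorylate CIRBP, was below the non-bloom median in all 9 bloom libraries and fell, with a log2 difference of -0.74 (SE 0.19, adjusted p = 0.0344, limma). SRPK1, the other main family of SR protein kinases, fell with a difference of -0.58 (SE 0.17, adjusted p = 0.0444, limma).

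The calls of SP1, GSK3B and SRPK1 were lost in 10, 9 and 12 of 17 fits with 1 library left out, where the adjusted p reached 0.0895, 0.0737 and 0.0884 (limma), and all of them without bloom 5, 6 and 9. HSF1, the heat shock transcription factor, ran from 59.4 to 122 in bloom and from 50.9 to 72.5 in non-bloom and did not pass (log2 difference 0.33, SE 0.14, adjusted p = 0.0985, limma). In mouse neurons RBM3 responds to BDNF and its receptor NTRK2. BDNF was at 6.39 ± 5.56 in bloom and 13.1 ± 6.24 in non-bloom (adjusted p = 0.0839, limma), and NTRK2 at 140 ± 82.7 in bloom and 150 ± 76.4 in non-bloom (adjusted p = 0.679, limma). HNRNPH1, which acts on the RBM3 exon in human cells, was not analysed here.

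**Figure D4:**
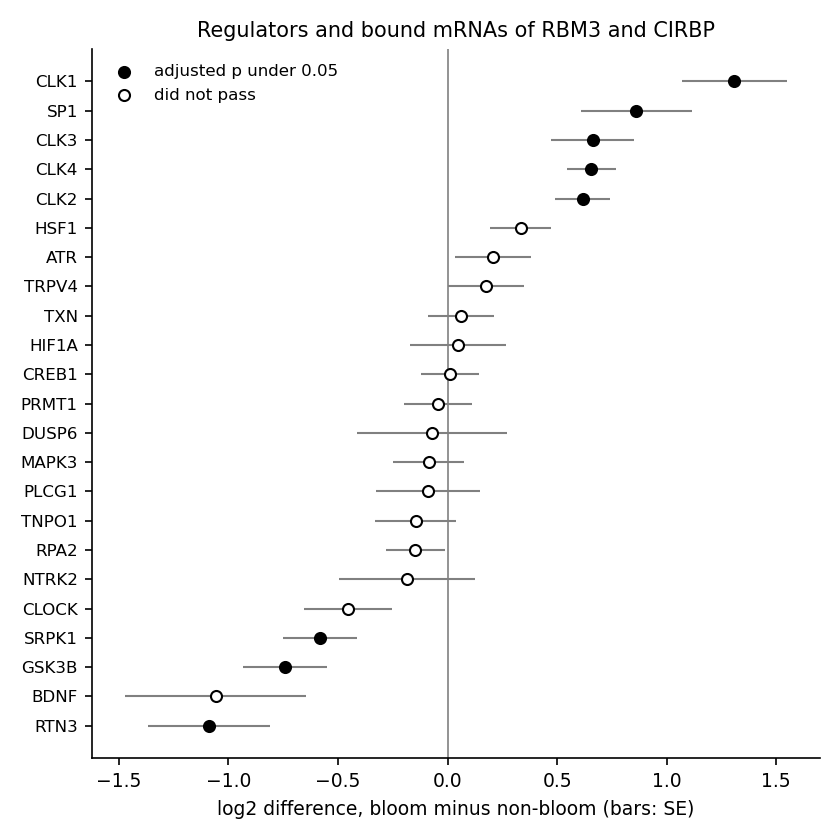
Log2 difference between seasons, bloom minus non-bloom, for listed regulators and bound transcripts of RBM3 and CIRBP, with the SE as bars; filled points passed an adjusted p under 0.05 (limma, over all genes). The CLK kinases and SP1 lie on the higher side, and RTN3, GSK3B and SRPK1 on the lower side.

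Of 5 transcripts reported to be bound or controlled by the pair, 1 fell and none rose, and the median log2 difference was -0.15. Over all genes 4.69% fell and 4.47% rose. RTN3, a reticulon of the endoplasmic reticulum whose translation is promoted by RBM3 in mouse brain, averaged 326 ± 167 in bloom (SD, n = 9) and 622 ± 118 in non-bloom (SD, n = 8), with its lowest value, 138, in bloom 5. All 9 bloom libraries lay below the non-bloom median, and the log2 difference was -1.09 (SE 0.28, adjusted p = 0.0344, limma). The call was lost in 9 of 17 fits with 1 library left out (adjusted p up to 0.0735, limma) and without bloom 5, 6 and 9, where the difference was -0.62 (adjusted p = 0.0780, limma). CLOCK, whose transcript CIRBP binds in mouse cells, was at 23.0 ± 9.20 in bloom and 30.6 ± 5.95 in non-bloom (SD, n = 9 and 8; adjusted p = 0.118, limma). TXN, RPA2 and ATR did not pass.

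Among 17 genes of the circadian clock and its outputs, 1 fell and none rose, with a median log2 difference of -0.048. The share of all genes that fell was 4.69%. HLF, a PAR bZIP factor of the clock output, ran from 13.4 to 48.1 in bloom and from 43.7 to 62.2 in non-bloom, with a log2 difference of -0.83 (SE 0.20, adjusted p = 0.0315, limma); the call was lost in 8 of 17 fits with 1 library left out (adjusted p up to 0.0692, limma). Times of day are not in the labels.

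The heat shock list, of chaperones and their regulators, had 2 of 23 tested members higher and none lower, with a median of 0.038. Of all genes 4.47% were higher and 4.69% lower. CRYAB, the small heat shock protein alpha-B crystallin that is also abundant in glia, ran from 218 to 1261 in bloom, with a median of 474, against 87.8 to 262 in non-bloom, with a median of 160. Its log2 difference was 1.53 (SE 0.32, adjusted p = 0.0230, limma), with the call lost without non-bloom 2, 6 or 8 (adjusted p = 0.0584, 0.0512 and 0.0523). DNAJB1, a co-chaperone induced by heat, rose with a difference of 0.51 (SE 0.15, adjusted p = 0.0471, limma), lost in 13 of 17 such fits (adjusted p up to 0.0882) and without bloom 5, 6 and 9 (adjusted p = 0.0541). The abundant chaperones HSPA8, HSP90AA1 and HSPH1 did not pass.

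Proteins with a cold-shock domain, a fold unrelated to that of RBM3 and CIRBP, gave 1 rise among 5 tested members and a median of 0.67. The share of all genes that rose was 4.47%. YBX1, which binds and packages messenger RNA, was at 235 ± 105 in bloom and 132 ± 27.8 in non-bloom (SD, n = 9 and 8), a difference of 0.74 (SE 0.23, adjusted p = 0.0497, limma). That call was lost in 14 of 17 fits with 1 library left out (adjusted p up to 0.0961), and the difference was 0.38 without bloom 5, 6 and 9 (adjusted p = 0.179, limma).

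Genes named RBM with a number or an X, a naming group that shares an RNA recognition motif, did not follow RBM3 as a group. Of 31 tested, 3 rose, 1 fell and 27 did not pass, beside the 9.16% of all genes that passed, and the median was 0.050. RBM39, an SR-like splicing factor, rose with all 9 bloom libraries above every non-bloom one, as in 0.502% of all genes (log2 difference 0.54, SE 0.09, adjusted p = 0.00680, limma). RBM14 rose by 0.47 and RBM4 by 0.53 (adjusted p = 0.0422 and 0.0365, limma), while RBM18 fell, with a difference of -0.71 (adjusted p = 0.0376, limma). The calls of RBM14, RBM4 and RBM18 were lost in 11, 10 and 11 of 17 fits with 1 library left out (adjusted p up to 0.0789, 0.0745 and 0.0793, limma), and that of RBM39 in none. Without bloom 5, 6 and 9 those of RBM4 and RBM18 were lost (adjusted p = 0.0771 and 0.0685, limma). RBM4 and RBM4B are near-identical copies, and reads they share may have been divided between them.

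Of 10 SR splicing factors 1 rose, where 4.47% of all genes did. SRSF4 was at 96.1 ± 8.91 in bloom and 75.1 ± 10.6 in non-bloom (SD, n = 9 and 8), with a difference of 0.36 (SE 0.10, adjusted p = 0.0440, limma). Of 18 stress granule genes, a class of granules that CIRBP enters under stress, 2 fell and none rose, where 4.69% of all genes fell. They were G3BP2, with a difference of -1.08 (SE 0.27, adjusted p = 0.0315, limma), and the RNA helicase DDX3X, with -0.52 (SE 0.13, adjusted p = 0.0341, limma). The calls of SRSF4, G3BP2 and DDX3X were lost in 12, 8 and 10 of 17 fits with 1 library left out (adjusted p up to 0.0888, 0.0702 and 0.0702, limma) and without bloom 5, 6 and 9.

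The genes whose levels ran most like both members were sought within seasons, so that the seasonal difference did not enter. For each of 13546 other genes the Pearson r with RBM3 and with CIRBP was taken in the 9 bloom and in the 8 non-bloom dolphins, and likeness was the lowest of these 4 values. ACCS, a homologue of a plant aminocyclopropane carboxylate synthase, had the highest likeness, 0.71, with r of 0.71 and 0.73 in bloom and 0.83 and 0.81 in non-bloom. It was followed by TCTA at 0.68, XPC, which recognises DNA damage for excision repair, at 0.65, DFNB59 at 0.63, ORAOV1 at 0.62 and CTU2, an enzyme of transfer RNA thiolation, at 0.59. C17ORF100, MED20, C2ORF61 and HMGB3 ran from 0.58 to 0.57.

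The highest likeness of another gene was 0.71. The r of the pair with each other was 0.89 in each season, which is not a lowest of 4 values and so is a different measure. HMGB3, a chromatin protein of the HMG-box family, had r of 0.96 with RBM3 and 0.90 with CIRBP in bloom, and 0.57 with each in non-bloom. Only 38 genes had all 4 r above 0.5. The season test called none of the 10 most alike genes: ACCS was at 6.52 ± 3.81 in bloom and 5.50 ± 2.04 in non-bloom (SD, n = 9 and 8; log2 difference 0.15, SE 0.26, adjusted p = 0.684, limma), and HMGB3 at 23.9 ± 9.58 in bloom and 35.1 ± 9.71 in non-bloom (-0.57, SE 0.23, adjusted p = 0.0884, limma). Several of them are low: C17ORF100 had 1 to 14 reads per library and DFNB59 had 4 to 27.

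With all libraries, genes that ran opposite to both members were more frequent, with 67 genes below -0.5 in all 4 r. Without bloom 5, 6 and 9 the counts lay closer together, with 181 opposite and 164 alike. RBM41, an RNA-binding protein, led with r of -0.85 and -0.86 in bloom and -0.86 and -0.82 in non-bloom, on 1 to 36 reads per library. SLC26A2 had none in bloom 9. Others were ANGPT2 (angiopoietin 2, of vessel remodelling) with its weakest r at -0.69, the sulfate transporter SLC26A2 and C1ORF63 at -0.68 each, the splicing factor subunit SF3B3 at -0.67, PAXBP1 at -0.66, ARHGAP10 at -0.65, TFAP4 at -0.64 and the poly(A) polymerase PAPD4 at -0.63. CLK1 was next in this order, at -0.62.

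Of these 10 genes C1ORF63 rose, with 32.7 ± 8.30 in bloom and 15.5 ± 4.34 in non-bloom (SD, n = 9 and 8; log2 difference 1.03, SE 0.17, adjusted p = 0.00802, limma), and the other 9 did not pass. The order of these genes depended on the measure. Of the 10 most alike and the 10 most opposite genes, 4 and 4 were kept among the genes with a symbol with Spearman's rho, and 1 and 1 without bloom 5, 6 and 9, where ACCS was at rank 12 over all genes, with or without a symbol; RBM41 was second among the opposite genes in both cases.

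**Figure D5:**
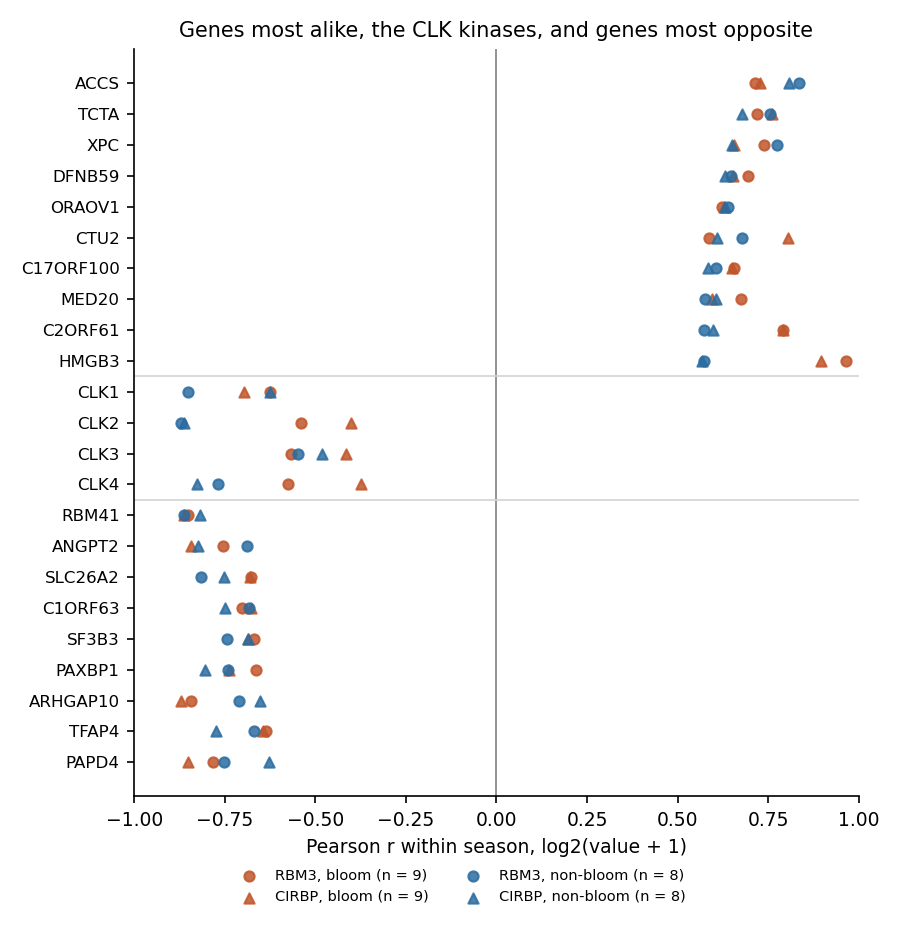
Pearson r with RBM3 (circles) and CIRBP (triangles) within the bloom season (orange, n = 9) and the non-bloom season (blue, n = 8), on log2(value + 1), for the 10 genes most alike, the 4 CLK kinases and 9 of the 10 genes most opposite. The CLK kinases lie on the negative side in all 4 correlations, with CLK1 next to the most opposite genes.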

How the data were processed

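The authors deposited a normalised signal for each gene in each library. Trim Galore 0.6.1 and STAR 2.5.2a are listed in the submitters' processing notes; the sources used here name no counting tool or genome build. All nonzero values (100%) were whole multiples of 1 read within 0.01, and the divisors matched library sizes scaled by TMM factors recomputed here, so reads were recovered from the signal. Genes were kept by edgeR's filterByExpr (minimum count 10, minimum total 15), and season alone was fitted by limma-trend (limma 3.58.1 in R 4.3.3) to log2(value + 1). Alternatives used edgeR 4.0.16 and DESeq2 1.42.0. The fit was also run on simulated counts with known changes, the same spread for every gene and no high-mitochondrial libraries. That setting differs from these data, so it does not show how the fit performs on them. Correlations used exact permutation of pairings.

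The members, lists and tests were chosen with earlier results of these data known. Named genes are RBM3, CIRBP, the 10 most alike and 10 most opposite genes, list members that passed (4 by smallest p where over 5 passed) and CLK1, SP1, RTN3 and HSF1 for their role; CLK3, SRPK1 and other genes that did not pass were named after their values were seen. Fold changes on log2(value + 1) understate the change of low genes. Each library has a dolphin of its own, per the labels. P-values measure the spread between these dolphins. HNRNPH1, named by the same rule, was not analysed here, and some genes that the rule or a list holds are not reported here, though the counts include them. Effects of the alternatives are in the closing section.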

Additional observations from a re-analysis of the deposited data

Results flagged for a closer look

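CLK4 in bloom 6 stood far from the other bloom libraries. Its value was 41.2, the next highest bloom value was 33.4, and the gap was 0.553 of the range of the group. Of 50 groups of values examined in this way, chance alone flags about 1 in 20. Bloom 6 also had the second lowest RBM3 and CIRBP values of the bloom season.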

How the results depend on the processing

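The seasonal differences of RBM3 and CIRBP and the size of their correlation within each season moved little. Without 1 library the log2 difference ran from -1.37 to -1.14 for RBM3 and from -0.93 to -0.73 for CIRBP, and r from 0.87 to 0.94 in bloom and from 0.81 to 0.93 in non-bloom. Another pseudocount or scaling changed no sign and no call of r. The p of r adjusted over 22 relations (exact permutation) no longer passed in 6 of 9 bloom and 6 of 8 non-bloom fits without 1 library, nor without bloom 5, 6 and 9, where r was 0.892. The correlations of CIRBP with the mitochondrial ratio and of RBM3 and CIRBP with the number of other reads changed sign without bloom 5, 6 and 9, to -0.56, 0.27 and 0.12, and none passed either way.

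Counts of genes that passed depended on the setting. Over all genes it was 1241, and 320 without bloom 5, 6 and 9, 560 with no filter, 4 with the neuron marker covariate, 1169 by edgeR and 3170 by DESeq2, and 61 to 2895 without 1 library. By edgeR 823 were higher and 346 lower, and by limma 606 and 635. Without bloom 5, 6 and 9 the regulators had 3, heat shock 1, and bound transcripts, cold-shock-domain, stress granule and SR factors 0 each. With no filter regulators had 4, heat shock 1 and cold-shock-domain 0. With the covariate all 8 lists had 0. Several log2 differences were then smaller in size, at -0.36 for GSK3B, -0.30 for SRPK1, -0.55 for RTN3 and -0.39 for HLF. Without the covariate these were -0.74, -0.58, -1.09 and -0.83. G3BP2 went from -1.08 to -0.54 and YBX1 from 0.74 to 0.33. RBM39 (0.54 to 0.50) and DDX3X (-0.52 to -0.50) moved little. By DESeq2 clock had 4, heat shock 7, cold-shock-domain 3, stress granule 4, SR factors 3 and RBM genes 9. With a pseudocount of 0.1 heat shock had 1 and cold-shock-domain 0, and cold-shock-domain also had 0 with relative log expression scaling. Without 1 library the counts ran from 2 to 9 for regulators, 0 to 2 for bound transcripts, 0 to 6 for clock, 0 to 7 for heat shock, 0 to 3 for cold-shock-domain, 0 to 4 for stress granule, 0 to 3 for SR factors and 1 to 7 for RBM genes. Genes with all 4 r above 0.5 numbered 164, and below -0.5 numbered 181, without bloom 5, 6 and 9, where 6 bloom libraries remain. The cause of these shifts was not tested. No paired analysis was possible because each library is its own dolphin and the numbers only name samples.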
